A study of Mus musculus with 8 samples.

Results

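The 10 genes described here encode the MHC class II antigen presentation pathway: the class II chains H2-Aa, H2-Ab1 and H2-Eb1, the invariant chain Cd74, the transactivator Ciita, the peptide exchange factor chains H2-DMa, H2-DMb1 and H2-DMb2, and the modulator chains H2-Oa and H2-Ob. They were taken as a list of symbols by a rule that uses no measured value, although earlier results of these data were known, and all 10 were found among the 55487 gene identifiers of the tables. The tissue was epididymal white adipose tissue (the visceral fat pad beside the epididymis) of C57BL/6 male mice made obese by high-fat feeding. The 4 AKO mice, numbered 3, 8, 9 and 11, carry floxed alleles of Slc16a1 together with the AP2-cre transgene, and their genotype is labelled Slc16a1 -/-. The 4 WT mice, numbered 2, 3, 4 and 5, carry the floxed alleles without Cre, so that the WT animals too have the modified locus. Slc16a1 encodes MCT1, a carrier of lactate and other monocarboxylates. AP2-cre expresses Cre from the promoter of Fabp4, a gene of fat cells that some macrophages also express, so deletion need not be limited to adipocytes. The labels used here give no age.

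MHC class II molecules are pairs of an alpha and a beta chain that antigen-presenting cells, chiefly dendritic cells, macrophages and B cells, use to show peptides of ingested proteins to CD4+ T cells. The invariant chain fills the peptide groove until proteases of the endosome cut it down, H2-DM then swaps the remaining fragment for a peptide, and H2-O restrains H2-DM, mostly in B cells and some dendritic cells. Transcription of these genes depends on Ciita, which binds no DNA itself and is recruited by the factors RFX, CREB and NF-Y sitting on the X and Y boxes of class II promoters. In obese fat, class II is found on macrophages and dendritic cells and has also been described on adipocytes.

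The promoter letters are shown first because Ciita is recruited to class II promoters at X and Y boxes. Neither binding nor dependence on Ciita was measured here. RefSeq windows from 250 bases before to 50 bases after the annotated start (build GRCm38.p6) were at hand for 7 of the 10 genes. A pair of short patterns was searched on both strands: GATTGG, the core of the Y box, and CNNNNAAC, a loose stretch of the X box. In 6 of the 7 genes the pair lay on the gene's own strand, and the Y core began 44 to 91 bases before the gene start. The X stretch capitalised below lay 32 to 35 bases ahead of the Y core (start to start). The capitals mark the X stretch and then the Y core.
H2-Aa (chr17:34287861-34287913, minus strand): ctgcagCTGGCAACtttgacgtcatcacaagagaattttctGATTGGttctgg
H2-Eb1 (chr17:34305767-34305818, plus strand): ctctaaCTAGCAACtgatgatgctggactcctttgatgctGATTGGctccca
H2-DMb1 (chr17:34153088-34153140, plus strand): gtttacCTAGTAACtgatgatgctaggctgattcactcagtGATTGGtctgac
H2-DMb2 (chr17:34145117-34145169, plus strand): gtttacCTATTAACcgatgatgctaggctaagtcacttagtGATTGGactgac
H2-Oa (chr17:34092294-34092346, plus strand): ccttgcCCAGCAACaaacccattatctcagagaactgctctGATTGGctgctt
H2-Ob (chr17:34238809-34238858, plus strand): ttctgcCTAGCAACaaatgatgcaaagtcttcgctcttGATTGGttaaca
Across all 32851 windows of 300 bases in that table, 16.1% held the Y core, 81.6% the X stretch, and 0.362% the pair spaced by 30 to 36 bases on either strand. The pattern and its spacing were chosen on these 6 sequences, so the small share describes them and tests nothing. The H2-Oa window holds 2 such pairs that share 1 Y core, of which the wider is capitalised. The range of 32 to 35 bases leaves out the other. Neither of the 2 windows of H2-DMa held the spaced pair. The H2-DMb1 and H2-DMb2 stretches resemble each other closely, as do the transcripts described below.

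**Figure D1:**
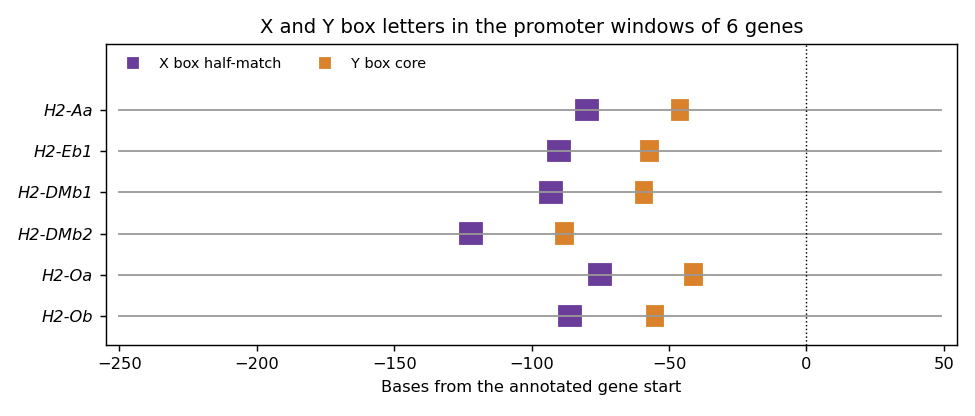
Position of the X box stretch (purple) and the Y box core (orange) in the promoter windows of 6 class II pathway genes, in bases from the annotated gene start (dotted line at 0). The Y core starts 44 to 91 bases ahead of the start, and the X stretch drawn starts 32 to 35 bases ahead of the Y core. Only the wider of the 2 pairs of H2-Oa is drawn.

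Among the genes named here, the RefSeq order on chromosome 17 is H2-Oa, H2-DMa, H2-DMb2, H2-DMb1, H2-Ob, H2-Ab1, H2-Aa, H2-Eb1, H2-Eb2 and H2-Ea. Only these genes were ordered, so they need not be neighbours. Ciita lies on chromosome 16 and Cd74 on chromosome 18.

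The values are TPM, a length-corrected level that can be compared between genes and that keeps no read depth. Between 14143 and 14884 genes reached 1 TPM in the AKO libraries, against 13968 to 14230 in the WT libraries. Total Slc16a1 had 22.4, 21.5, 27.1 and 25.03 TPM in AKO mice 3, 8, 9 and 11, against 23.4, 28.5, 15.7 and 17.7 TPM in WT mice 2, 3, 4 and 5. The total was thus not lower in the libraries labelled AKO and does not check the labels, which the group names follow throughout. The first of its 2 transcript rows had 8.80, 7.71, 4.51 and 5.43 TPM in AKO, against 10.8, 14.04, 15.7 and 17.7 TPM in WT. The second row had 13.6, 13.8, 22.5 and 19.6 TPM in AKO, against 12.5, 14.4, 0 and 0 TPM in WT. The rows thus went in opposite directions, and WT mice 4 and 5 had no value above 0 in the second. No source used here ties either row to a part of the transcript.

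Levels within the pathway differed widely between genes. Cd74 was highest in every mouse, between 1646 and 2237 TPM. H2-Aa (804 to 1138 TPM), H2-Ab1 (727 to 1012 TPM) and H2-Eb1 (661 to 935 TPM) followed with overlapping ranges, although within each of the 8 mice they stood in that order. H2-DMb1 (68.2 to 150.0 TPM) and H2-DMa (55.6 to 77.6 TPM) overlapped each other and were below the class II chains in all 8 mice. Ciita lay between 7.59 and 11.5 TPM. H2-DMb2 (1.83 to 5.70 TPM), H2-Ob (1.03 to 2.90 TPM) and H2-Oa (0.170 to 1.83 TPM) were lowest and overlapped their neighbours. Together H2-Aa, H2-Ab1, H2-Eb1 and Cd74 held 0.384% to 0.532% of all TPM in AKO and 0.396% to 0.420% in WT.

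**Figure D2:**
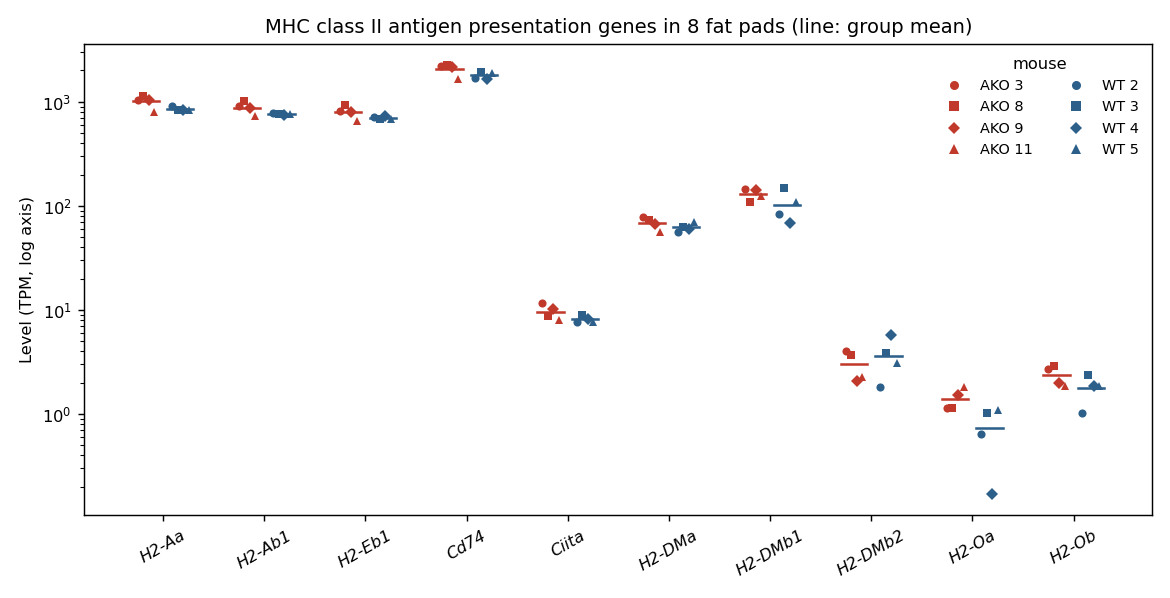
TPM (log axis) of the 10 genes in each mouse, AKO in red left of WT in blue, with 1 symbol per mouse and a line at the group mean. Cd74 and the 3 class II chains have no value below 661 TPM, while every value of the H2-O chains lies below 3 TPM. AKO mouse 11 is the lowest AKO mouse for H2-Aa, H2-Ab1, H2-Eb1 and Cd74.

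The class II chains come first. H2-Aa, the alpha chain of the H2-A molecule, had 1049, 1138, 1046 and 804 TPM in AKO mice 3, 8, 9 and 11, against 906, 841, 833 and 825 TPM in WT mice 2, 3, 4 and 5. Its partner H2-Ab1, the beta chain, had 911, 1012, 873 and 727 TPM in AKO, against 775, 756, 746 and 764 TPM in WT. H2-Eb1, a beta chain of the H2-E molecule, had 822, 935, 803 and 661 TPM in AKO, against 715, 678, 737 and 681 TPM in WT. In each of the 3 genes, AKO mice 3, 8 and 9 were above every WT mouse and AKO mouse 11 was below every WT mouse, so the groups overlapped. The log2 difference was 0.23 for H2-Aa (SE 0.12, 95% interval -0.029 to 0.498), 0.20 for H2-Ab1 (SE 0.11) and 0.19 for H2-Eb1 (SE 0.11), each with a limma FDR of 0.831 over all genes.

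Mice of haplotype b, which C57BL/6 carries, do not transcribe the alpha gene of H2-E and show no H2-E on their cells. The gene, listed here as H2-Ea-ps, was listed at 0 TPM in all 8 libraries, while H2-Eb1 was never below 661 TPM. H2-Eb2, another beta chain locus, stayed below 1 TPM in every mouse (0.220 ± 0.0852 TPM in AKO and 0.195 ± 0.130 TPM in WT, SD, n = 4 each) and was not tested.

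Cd74, the invariant chain, had 2200, 2237, 2166 and 1653 TPM in AKO, against 1707, 1923, 1646 and 1910 TPM in WT. AKO mice 3, 8 and 9 were again above every WT mouse, and AKO mouse 11 lay at the low end of the WT range. The means were 2064 ± 276 TPM in AKO and 1797 ± 141 TPM in WT (SD, n = 4 each), a log2 difference of 0.19 (SE 0.12, limma FDR = 0.831). Cd74 per H2-Aa was 1.97 to 2.10 in AKO and 1.88 to 2.32 in WT.

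The ratios between class II chains varied less than their levels over all 8 mice, but not consistently within WT. H2-Ab1 per H2-Aa lay between 0.835 and 0.905 in AKO and between 0.855 and 0.926 in WT, a coefficient of variation (CV, the SD over the mean) of 3.33% over 8 mice. H2-Eb1 per H2-Aa lay between 0.768 and 0.822 in AKO and between 0.790 and 0.886 in WT, a CV of 4.43%. The level of H2-Aa itself had a CV of 13.8% over the same mice. Within AKO the 2 ratios had CVs of 3.45% and 3.42%, against 14.2% for the H2-Aa level. Within WT they had CVs of 3.27% and 5.06%. The WT levels had CVs of 4.36% for H2-Aa, 1.64% for H2-Ab1 and 4.06% for H2-Eb1, so the contrast rests on the AKO mice. TPM shares a common denominator within a library, which such a ratio removes.

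The spread differed between groups in size, but not in the same direction for every gene. The CV of H2-Ab1 was 13.4% in AKO and 1.64% in WT, that of H2-Aa 14.2% and 4.36%, and that of H2-Eb1 14.0% and 4.06%. Cd74, Ciita and H2-DMa also had the larger CV in AKO. The CV was larger in WT for H2-DMb1 (13.6% in AKO and 34.7% in WT) and H2-DMb2 (32.9% and 44.8%). The same held for H2-Oa (23.7% and 57.8%) and H2-Ob (22.5% and 31.4%). Among the 1423 genes with a mean of at least 100 TPM, the median CV was 9.33% in AKO and 12.9% in WT. In WT, 0.492% of those genes had a lower CV than H2-Ab1, against 70.4% in AKO. The share in WT was 24.1% for Cd74 and 89.2% for H2-DMb1. Without AKO mouse 11, the CV in the other 3 AKO mice was 7.69% for H2-Ab1, 8.34% for H2-Eb1, 4.86% for H2-Aa and 1.62% for Cd74, whose CV in WT was 7.83%. The difference in spread was not tested.

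Ciita, the transactivator, had 11.5, 8.80, 10.2 and 8.01 TPM in AKO, against 7.59, 8.87, 8.25 and 7.69 TPM in WT. AKO mice 3 and 9 were above every WT mouse and AKO mice 8 and 11 within the WT range. The means were 9.62 ± 1.55 TPM in AKO and 8.10 ± 0.590 TPM in WT (SD, n = 4 each), a log2 difference of 0.21 (SE 0.12, limma FDR = 0.831). One of its 9 transcript rows held 60.2% to 70.2% of the gene in every mouse. Ciita has several promoters, used in different cell types, and the rows name no transcript.

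H2-DM, the exchange factor, is a pair of H2-DMa with an H2-DMb chain. H2-DMa had 77.6, 72.3, 66.6 and 55.6 TPM in AKO, against 56.3, 63.0, 60.4 and 69.9 TPM in WT, with AKO mouse 11 lowest of all (log2 difference 0.12, SE 0.11, limma FDR = 0.860). H2-DMb1 had 146, 108, 143 and 124 TPM in AKO, against 84.2, 150.0, 68.2 and 109 TPM in WT. The WT mice spanned more than the AKO mice, and the groups overlapped (log2 difference 0.39, SE 0.23, limma FDR = 0.831). H2-DMb2 had 4.06, 3.65, 2.08 and 2.26 TPM in AKO, against 1.83, 3.87, 5.70 and 3.07 TPM in WT, and was the 1 gene of the 10 with a negative difference (log2 -0.17, SE 0.28, limma FDR = 0.915). Its difference became 0.034 without WT mouse 4, the highest mouse.
Levels of the 2 beta chains are uncertain. Their longest transcripts in GENCODE M21 were 95.7% identical over 1081 aligned bases, and 76.9% of H2-DMb1 lay in stretches of at least 50 bases with at least 95% identity to H2-DMb2. No source used here says how the authors' counting divided reads between them.

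H2-O, the restraint on H2-DM, is the pair of H2-Oa and H2-Ob. H2-Oa had 1.13, 1.15, 1.51 and 1.83 TPM in AKO, against 0.640, 1.01, 0.170 and 1.09 TPM in WT. Every AKO mouse was above every WT mouse, by as little as 1.13 TPM in AKO mouse 3 against 1.09 TPM in WT mouse 5. The difference was 0.50 in log2(TPM + 1), which understates changes of genes this low (SE 0.21, limma FDR = 0.831), and 1.04 with a pseudocount of 0.1. The exact permutation p was 0.0286, the smallest 4 against 4 mice allow. H2-Oa reached 1 TPM in 6 of 8 mice and met the filter through the 4 AKO mice alone, and 23.9% of its longest transcript is shared with the gene BC051537, so its level is uncertain too. H2-Ob had 2.72, 2.90, 1.97 and 1.84 TPM in AKO, against 1.03, 2.39, 1.87 and 1.87 TPM in WT, with overlapping groups (log2 difference 0.28, SE 0.19, limma FDR = 0.831).

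All 10 genes met the filter on low values, and none passed the threshold for AKO against WT. At a limma FDR below 0.05, 0 members were higher and 0 lower, against 0.0212% and 0.00706% of the 14172 genes tested. At an unadjusted limma p below 0.05, 1 of 10 was higher, H2-Oa, against 2.58% of all genes tested, and none lower, against 2.17%. Groups did not overlap for 1 of 10, H2-Oa, with AKO above, against 1.11% of all genes, and for none with AKO below, against 1.33%. Both counts of 1 are H2-Oa, which met the filter through the AKO mice, where it is higher, so nothing is read from them. The difference was positive for 9 of 10, against 53.8% of all genes, and its median was 0.21 against 0.015 over all genes tested. The 10 values come from the same 8 libraries, so the shared sign is not 10 separate observations. Without AKO mouse 11 the median was 0.29, and without AKO mouse 8 it was 0.16, in both cases with no gene past the threshold.

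**Figure D3:**
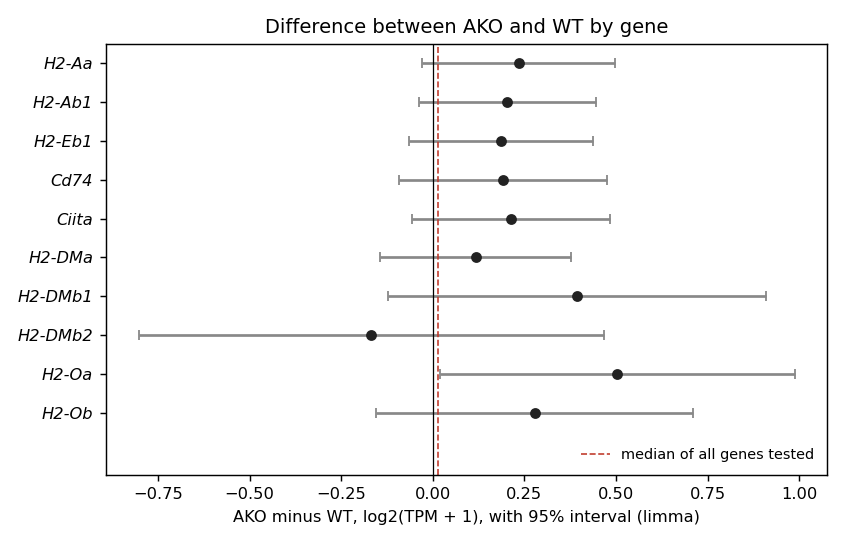
AKO minus WT difference in log2(TPM + 1) for each gene, with the 95% interval of the limma fit, and the median of all 14172 genes tested as a dashed line at 0.015. The point lies above 0 for 9 of the 10 genes, and the interval of H2-Oa (0.019 to 0.987) is the 1 interval that leaves out 0, before any adjustment.

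Correlation with Ciita was positive for all 9 other genes over the 8 mice, without passing adjustment. The 9 values share the same Ciita levels and the same 8 libraries, so the shared sign is not 9 separate observations. Pearson's r of log2(TPM + 1) was highest for Cd74, at 0.735 (exact permutation p = 0.0341, FDR = 0.346 over 14171 genes), with Spearman's rho 0.643 (exact p = 0.0962, FDR = 0.341). H2-Aa had an r of 0.654 (exact p = 0.0769, FDR = 0.379) and a rho of 0.571 (exact p = 0.151, FDR = 0.408). H2-Ob had the highest rho, 0.790 (exact p = 0.0248, FDR = 0.283), and an r of 0.627 (exact p = 0.104, FDR = 0.401). H2-DMa, H2-DMb1, H2-Ab1 and H2-Eb1 had r between 0.552 and 0.677, with exact p-values of 0.0639 to 0.157 and FDR of 0.367 to 0.456. H2-DMb2 and H2-Oa had 0.211 and 0.275 (exact p = 0.611 and 0.511, FDR = 0.810 and 0.747).
At an FDR below 0.05 there were 0 members, as there were 0.0% of all genes, by r and by rho. At an unadjusted exact p below 0.05, 1 of 9 had a positive r, against 10.6% of all genes, so that the count is near the background. The median r was 0.624 over the 9 genes and 0.155 over all genes, so a positive r was common among all genes too.

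The relation with Ciita changed without the 2 mice farthest from the Ciita median, AKO mice 3 and 9. Without them r was lower for 7 of the 9 genes, at 0.429 for H2-Aa, 0.572 for Cd74 and 0.0632 for H2-Oa, and higher for the other 2, at 0.856 for H2-Ob and 0.593 for H2-DMb2. With each value less its group mean, r was 0.431 for H2-Aa, 0.603 for Cd74, 0.614 for H2-DMa and -0.253 for H2-Oa, with a median of 0.437 over the 9 genes. Neither group alone has the 6 mice needed for an r of its own. H2-Aa, H2-Ab1, H2-Eb1 and Cd74 summed to 433 to 605 TPM per TPM of Ciita in AKO and 473 to 544 in WT.

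**Figure D4:**
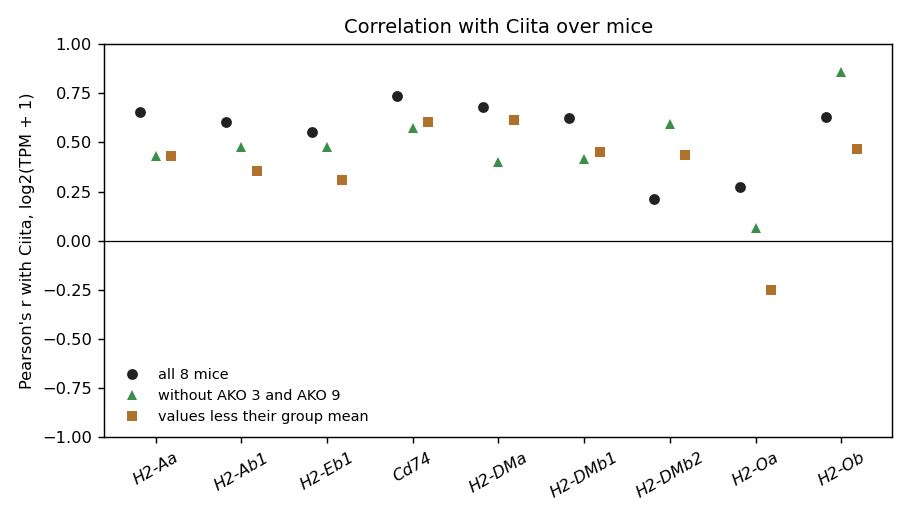
Pearson's r with Ciita over mice for the 9 other genes, from all 8 mice (circles), from 6 mice without AKO 3 and AKO 9 (triangles), and from values less their group mean (squares). Over 8 mice every circle is above 0, from 0.211 for H2-DMb2 to 0.735 for Cd74, and the square of H2-Oa is below 0.

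Genes whose pattern over the 8 mice was most like that of Ciita were Asap3 (r = 0.980), Ncoa7 (0.968), Orai2 (0.964), Xylt2 (0.958) and Naalad2 (0.957), each with an FDR of 0.201 to 0.288 over all genes. Those most like the mean log2 level of H2-Aa, H2-Ab1, H2-Eb1 and Cd74 were Gins3 (0.972), Gse1 (0.949), Cd200r3 (0.943), Epb41l4aos (0.941) and Rab40c (0.939), each with an FDR of 0.780. The 10 members were left out of both searches.

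Markers of cells that carry class II were measured beside the class II genes, since in whole tissue fewer cells of a type and less RNA per cell cannot be told apart. All 10 macrophage markers had a positive difference, against 53.8% of all genes tested, and none passed the threshold. Genes of any list below come from the same 8 libraries, so a shared sign within a list is not a set of separate observations. The macrophage markers summed to 5526, 4497, 6383 and 3618 TPM in AKO, against 3586, 5231, 2229 and 3433 TPM in WT (exact permutation p = 0.143). Fcgr1, an Fc receptor, had 16.2 ± 5.19 TPM in AKO and 9.95 ± 6.87 TPM in WT, and C1qc, a complement chain, had 477 ± 114 and 323 ± 112 (SD, n = 4 each), each with a limma FDR of 0.831. C1qb had 716 ± 172 TPM in AKO and 498 ± 185 TPM in WT, and Lyz2, lysozyme, had 2257 ± 504 and 1688 ± 438 (limma FDR = 0.831 for both). The highest macrophage sum was 2.86 times the lowest, against 1.38 times for the sum of H2-Aa, H2-Ab1, H2-Eb1 and Cd74. WT mouse 4 had the lowest macrophage sum and AKO mouse 9 the highest, and the class II sum per unit of macrophage sum was 1.78 in WT mouse 4 and 0.766 in AKO mouse 9. The part of macrophages in the class II values was not tested further.

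**Figure D5:**
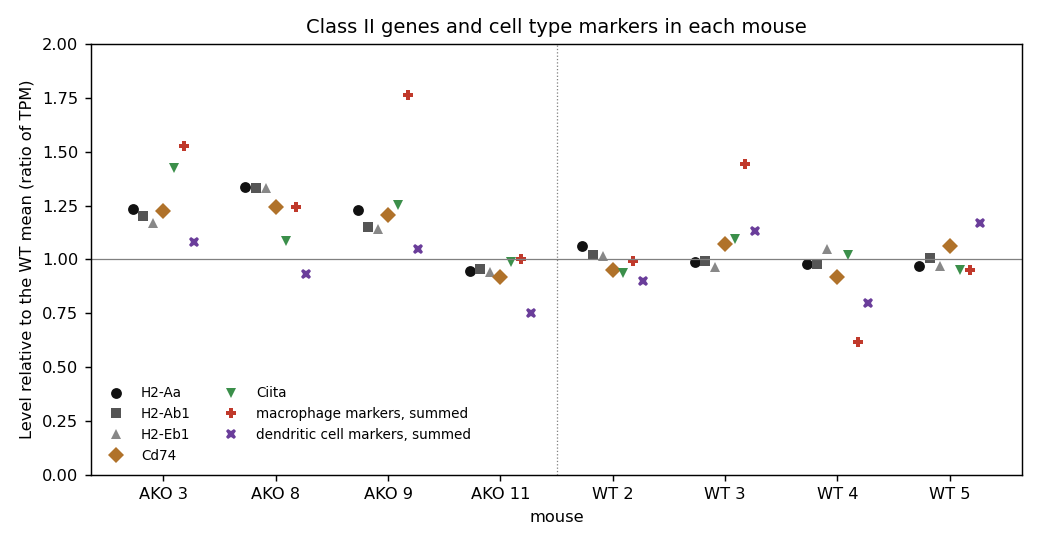
Level of H2-Aa, H2-Ab1, H2-Eb1, Cd74 and Ciita, and the summed macrophage and dendritic cell markers, in each mouse relative to the WT mean (ratio of TPM, 1 at the grey line), AKO left of WT. The class II points of 1 mouse lie close together and are above 1 in AKO mice 3, 8 and 9, while the macrophage sum spans 2.86 times over the 8 mice.

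Of the 10 genes, H2-DMb1 had the highest r with the macrophage markers. Its r with their summed level was 0.888 over 8 mice (exact permutation p = 0.00357, FDR = 0.0305), with a rho of 0.786 (exact p = 0.0279, FDR = 0.129). The call by r is 1 of 10 members, against 12.0% of all genes tested, so the count is near the background. It was lost without AKO mouse 9 and WT mouse 4, the mice farthest from the median (r = 0.746, exact p = 0.0972), and with values less their group mean (r = 0.844, FDR = 0.162). Cd74 had an r of 0.784 (exact p = 0.0227, FDR = 0.0955) and Ciita 0.708 (exact p = 0.0493, FDR = 0.157). H2-Aa had 0.608 (exact p = 0.109, FDR = 0.260), H2-Ab1 0.549 (exact p = 0.167, FDR = 0.342) and H2-Eb1 0.368 (exact p = 0.367, FDR = 0.563). H2-Oa had 0.677 (exact p = 0.0643, FDR = 0.185), H2-DMa 0.487 (exact p = 0.221, FDR = 0.409) and H2-Ob 0.434 (exact p = 0.279, FDR = 0.475). H2-DMb2 had a negative r, -0.334 (exact p = 0.419, FDR = 0.611).
Against the summed adipocyte markers, H2-DMb1 had an r of -0.915 (exact permutation p = 0.000868, FDR = 0.0157), with a rho of -0.833 (exact p = 0.0154, FDR = 0.0855). That call too is 1 of 10 members, against 13.4% of all genes tested with a negative r, and r was -0.898 without AKO mouse 9 and WT mouse 3 and -0.899 with values less their group mean. Ciita had an r of -0.776 (exact p = 0.0225, FDR = 0.0878), larger in size than its r with any other member. Cd74 had -0.731 (exact p = 0.0458, FDR = 0.138). The remaining genes ran from -0.571 for H2-Oa to 0.121 for H2-DMb2, the only positive r. The part of tissue composition in the correlations with Ciita was not tested. The macrophage and adipocyte sums come from the same libraries and TPM adds to a fixed total, so these are not separate relations.

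Conventional dendritic cell markers overlapped between the groups. They summed to 103.7 to 149 TPM in AKO and 109.9 to 161 TPM in WT. Of 8 tested markers 6 were positive and 2 negative, against 53.8% positive over all genes, and none passed the threshold. Clec10a, a lectin that some macrophages also carry, made up 62.5% to 72.9% of the sum in AKO and 57.3% to 77.7% in WT, so most of the sum is that 1 gene. Ccr7, a receptor of migrating dendritic cells, had 1.81 ± 0.295 TPM in AKO and 1.15 ± 0.374 TPM in WT (limma FDR = 0.831), and Cd209a 7.65 ± 1.72 and 10.8 ± 4.25 (SD, n = 4 each). Batf3, a factor of cross-presenting dendritic cells, had 15.6 ± 2.16 TPM in AKO and 12.5 ± 3.36 TPM in WT, and Clec9a 3.29 ± 0.316 and 2.80 ± 0.254 (limma FDR = 0.831 for all 3). With the summed dendritic cell level the 3 class II chains had r between 0.0871 and 0.263 (exact p of at least 0.528, FDR of at least 0.741), which became -0.500 to -0.405 without AKO mouse 11 and WT mouse 4. Cd74 had 0.641 (exact p = 0.0973, FDR = 0.391) and H2-DMa 0.662 (exact p = 0.0796, FDR = 0.379), and 0 of 10 members passed, as did 0.0% of all genes. B cell markers were low, summing to 7.28 to 10.5 TPM in AKO and 3.89 to 7.82 TPM in WT, and 4 of the 6 averaged below 1 TPM. Cd79a had 2.72 ± 0.919 TPM in AKO and 1.44 ± 0.300 TPM in WT, and Cd79b 4.22 ± 0.526 and 3.2 ± 0.920 (limma FDR = 0.831 for both). Of the plasmacytoid dendritic cell markers, Siglech averaged 0.565 TPM in AKO and 0.508 TPM in WT, and Ccr9 0.180 and 0.140. Tcf4, the 1 tested, had 54.2 ± 4.79 TPM in AKO and 51.5 ± 9.99 TPM in WT (limma FDR = 0.909). It stood so far above the others that it is not read as a level of those cells. Adipocyte markers were high, as the tissue label says, at 8889 to 12109 TPM summed in AKO and 9319 to 14043 TPM in WT. All 6 differences were negative, where 53.8% of all genes tested were positive, and none passed the threshold. The 6 values share the same libraries and are not separate observations. Plin1, the droplet coat gene, had 779.9 ± 88.2 TPM in AKO and 989 ± 174 TPM in WT, Lipe 721.7 ± 141 and 955 ± 235, Pparg 146 ± 20.2 and 165 ± 20.2, and Lep 2422 ± 263 and 2683 ± 502 (limma FDR of at least 0.831).

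The factors that turn class II genes on showed no call. Of 15 tested genes of the transcription list, 11 were positive and 4 negative, against 53.8% positive over all genes tested. Their median log2 difference was 0.10, against 0.015 over all genes. Nfya, a subunit of the Y box factor NF-Y, had 32.4 ± 7.38 TPM in AKO and 23.7 ± 7.10 TPM in WT (limma FDR = 0.831). Spi1, the myeloid factor PU.1, had 134 ± 45.2 TPM in AKO and 94.6 ± 49.02 TPM in WT, and Irf8 38.6 ± 10.3 and 30.4 ± 14.4 (limma FDR of 0.831 and 0.836). Ifngr2, a chain of the receptor for interferon gamma, had 28.7 ± 5.42 TPM in AKO and 24.5 ± 6.21 TPM in WT (limma FDR = 0.840). Interferon gamma itself, the main inducer of Ciita outside professional presenting cells, averaged 0.393 ± 0.410 TPM in AKO and 0.318 ± 0.302 TPM in WT and was not tested.

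Genes that supply peptides or turn class II over had a median log2 difference of 0.48, against 0.015 over all genes tested. Of the 11, 10 were positive and 1 negative, against 53.8% positive over all genes, and none passed the threshold. The 11 values come from the same 8 libraries, so the shared sign is not 11 separate observations. Ctss, the protease that finishes the trimming of the invariant chain, had 1115 ± 266 TPM in AKO and 691 ± 358 TPM in WT (log2 difference 0.82, limma FDR = 0.831). Ctsl, which has that role in thymic epithelium, had 2087 ± 399 TPM in AKO and 1413 ± 576 TPM in WT. Ctsd had 3409 ± 692 TPM in AKO and 2508 ± 767 TPM in WT, and Ctsz 769.7 ± 141 and 582 ± 204 (limma FDR = 0.831 for all 3). The groups overlapped for each of these 4. The list summed to 8737 to 13726 TPM in AKO and 4608 to 11263 TPM in WT, where the macrophage sum was 3618 to 6383 TPM in AKO and 2229 to 5231 TPM in WT. The part of macrophages in these values was not tested.

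Costimulation and the T cell side of the contact were low. Of 5 tested costimulation genes 4 were positive and 1 negative, against 53.8% positive over all genes, with none past the threshold. Cd274, which encodes PD-L1, had 11.7 ± 1.24 TPM in AKO and 9.21 ± 1.90 TPM in WT (limma FDR = 0.831). Icosl had 10.4 ± 0.773 TPM in AKO and 9.67 ± 0.267 TPM in WT, Cd80 2.84 ± 1.01 and 2.33 ± 1.03, and Cd86 6.78 ± 1.51 and 6.27 ± 0.676 (limma FDR of at least 0.849). Cd4, the coreceptor that binds class II, had 1.58 ± 0.943 TPM in AKO and 1.11 ± 0.321 TPM in WT (limma FDR = 0.867). Lag3, an inhibitory receptor of class II, had 4.04 ± 0.894 TPM in AKO and 5.53 ± 2.56 TPM in WT (limma FDR = 0.859). Cd3e had 1.71 ± 1.52 TPM in AKO and 1.17 ± 0.468 TPM in WT, and Trac 6.12 ± 0.793 and 6.04 ± 0.957 (limma FDR of 0.915 and 0.981).

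The share of a gene held by its main transcript row differed among members. One row held 99.6% to 99.8% of H2-Aa, 97.7% to 99.1% of H2-Ab1 and 98.9% or more of H2-DMb1 over the 8 mice. H2-Eb1 was divided among its 6 rows, the highest of which held 37.0% to 40.6%. Cd74 had 72.1% to 76.5% in 1 of 5 rows. The rows name no transcript, so no isoform is given.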

How the data were processed

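RNA of epididymal white fat from 8 mice was sequenced, 4 AKO and 4 WT. The authors deposited TPM, abundances corrected for transcript length, with 1 row per transcript under a gene identifier, and each table sums to 1000000 within rounding. Per the submitters' processing notes, the tools include HISAT2 and DESeq2 and the build mm9, in roles and versions not stated. Neither quantifier nor annotation is named in those sources. Since TPM values hold no depth, no counting error could be computed.

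The rows of a gene were summed, and symbols came from a gene name table that matched 55141 of 55487 identifiers. Another 401 rows with locus identifiers were left out. limma (version 3.58.1, R 4.3.3) with a mean-variance trend was fitted to log2(TPM + 1) over 14172 genes, each reaching 1 TPM in 4 or more samples, with Benjamini-Hochberg adjustment and a threshold of 0.05. On simulated data in which genes varied independently, the fit recovered 80 of 100 planted log2 changes of 1 and 92 of 100 of 2, with 14 false calls. Changes were planted only in genes that were not low. Differences as small as those of the members were not simulated, so the simulation does not bear on the lack of calls among them. Single values were compared by two-sided exact permutation over the 70 arrangements of 4 and 4 mice, whose smallest possible p is 0.0286. Correlations over mice used exact permutation of the pairings, adjusted over all genes tested. Transcripts of GENCODE M21 were compared with blastn (version 2.17.0). Promoter windows are RefSeq's on GRCm38.p6, not the build of the notes, and no coordinate was transferred.

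The members and lists were chosen with earlier results of these data known. All 10 members are named, with up to 4 members of each list by smallest p, and the 5 genes outside the members most correlated with Ciita and with the mean of 4 class II genes, leaving out symbols of the Gm and Rik forms. The correlation with macrophage, dendritic cell and adipocyte markers, the CV without AKO mouse 11 and the promoter motifs were chosen after values or sequences were seen. Alternatives were a pseudocount of 0.1, no filter, median-ratio scaling, the highest row of each gene, sample quality weights and leaving out each mouse.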

Additional observations from a re-analysis of the deposited data

Results flagged for a closer look

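Cd74 in AKO mouse 11 stood apart from the other AKO mice, at 1653 TPM against 2166 TPM in the next lowest, AKO mouse 9. The gap was 0.878 of the range of the 4 AKO mice, above Dixon's critical value of 0.829. It was the 1 flag among the 44 groups of 4 mice looked at, and chance flags about 1 in 20.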

How the results depend on the processing

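The counts of members past the threshold, 0 higher and 0 lower, and those of the pathway lists were 0 under all 13 alternatives. The median difference of the 10 members lay between 0.16 and 0.29, the range given by leaving out 1 mouse. Of 130 repeats of single-gene differences, 129 kept their sign and their side of the threshold. Their size moved more: leaving out 1 mouse changed the difference by over 1.5 times for 9 of the 10 genes, H2-Aa being the other. H2-Ab1 was 0.13 and H2-Eb1 0.11 without AKO mouse 8, Cd74 was 0.30 without AKO mouse 11, and Ciita was 0.13 without AKO mouse 3. H2-DMa was 0.051 without AKO mouse 3, 0.069 without WT mouse 2 and 0.21 without AKO mouse 11. H2-DMb1 was 0.22 without WT mouse 4 and 0.59 without WT mouse 3, H2-Oa was 0.33 without WT mouse 4, and H2-Ob was 0.13 without WT mouse 2. H2-DMb2, at -0.17 with all mice, was -0.38 without WT replicate 2, with the same sign. Its sign changed only without WT replicate 4, at 0.0345. No member passed for r with Ciita under 6 alternatives, and H2-Oa turned to -0.253 with values less their group mean. For r with macrophage markers, an analysis added after the data were seen, H2-DMb1 lost its call with no filter (FDR = 0.0602, r = 0.888). Without the 2 mice farthest from the marker median, H2-DMb2 turned from -0.334 to 0.814 and H2-Oa from 0.677 to -0.0494. The causes were not tested. No paired analysis was possible because the groups share only replicate number 3, on different animals.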

Other observations

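Lists of cells outside the class II pathway gave no call. Il7r, of innate lymphoid and T cells, had 45.8 ± 10.8 TPM in AKO and 33.2 ± 21.8 TPM in WT (SD, n = 4 each; limma FDR = 0.831). The endothelial genes Pecam1, Cdh5 and Kdr summed to 274 to 364 TPM in AKO and 232 to 412 TPM in WT. The mesothelial genes Msln, Upk3b and Lrrn4 summed to 6.37 to 34.3 TPM in AKO and 16.0 to 46.4 TPM in WT. Markers of epididymal epithelium summed to 0 to 0.510 TPM in AKO and 0.05 to 7.57 TPM in WT, with Lcn5 listed at 0 in 7 of 8 mice. The highest sums were in WT mouse 3 (4.35 TPM, with Lcn5 at 3.98 TPM) and WT mouse 4 (7.57 TPM, all Crisp1). Any relation of these values to the class II levels was not tested.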
